A study of Mus musculus with 267 samples.

Results

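The sites described here are 1981 EGR2-bound regions of mouse bone marrow-derived macrophages (BMDMs) that already carried a PU.1 peak before any IL-4 was given. They were taken from the 4677 sites at which EGR2 binding was induced by 24 hours of IL-4 in C57 BMDMs and at which the Egr2 genotypes were later profiled. The sites were thus chosen by measured binding, namely EGR2 peaks at 24 hours and PU.1 peaks in basal C57 libraries, and neither is a finding here. A site, 300 bp around its centre, was counted in when it overlapped a peak of the basal C57 PU.1 list by at least 1 bp, which left 2696 sites without such a peak. Of these, 830 overlapped a C57 PU.1 peak at 24 hours of IL-4 only, and 1866 overlapped neither list.

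The libraries compared came from Egr2flfl BMDMs (Egr2 WT below) and LyzMCreEgr2flfl BMDMs (Egr2 MKO below), so both genotypes carried the floxed Egr2 alleles and only the latter carried a Cre recombinase. Cre was driven by LyzM, a gene of the myeloid lineage, so recombination was not limited to one stage of macrophage differentiation. Bone marrow was cultured for 7 days with M-CSF, and the cells were either left untreated (basal) or given IL-4 at 20 ng/mL for 24 hours. All mice of the study were females aged 8 to 12 weeks. ChIP-seq was available for H3K27ac, H3K4me2, PU.1, C/EBPb, STAT6 and PPARg with 2 libraries per genotype and condition, labelled as biological replicates, and for RNA polymerase II (Pol II) with 1, for which no test was possible. EGR2 itself was not profiled in these genotypes, so its loss could not be checked at the sites. Values are normalized tags, that is reads at a site scaled to a library total of 1e+07 reads, counted in 1000 bp for histone marks and Pol II and in 300 bp for the other factors. In bulk chromatin, fewer cells with a bound site and less binding per cell cannot be told apart.

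PU.1 is a lineage-determining factor of macrophages that binds closed chromatin together with partners such as C/EBP and AP-1 proteins and leaves it open for factors that arrive later. IL-4 signals through STAT6, which induces Egr2, a zinc-finger factor, and Pparg, a lipid-sensing nuclear receptor, and all of these proteins bind enhancers of alternative activation genes. H3K4me2 marks enhancers that are primed or active, H3K27ac marks active ones, and Pol II is found at enhancers that are transcribed.

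Short stretches of the sites that the results below turn on are shown first, because they carry the letters of the factors compared. Capitals mark the match to the motif searched, each stretch is written 5′ to 3′ on the strand named, and positions are on mm10, with bases taken from the RefSeq sequence of that build. Ranked by the fold of group means, the Pde4a, Ffar4 and Kcnn3 sites had the largest falls of H3K27ac in Egr2 MKO BMDMs and the Maf site the largest rise, and the Arg1, Mgl2, Cdh1 and Pdcd1lg2 sites lay nearest to alternative activation genes.
Pde4a EGR letters (chr9:21195251-21195280, plus strand): agttttaagtaGTGGGCGgggccaagatct
Ffar4 EGR letters (chr19:38093583-38093612, plus strand): tccacctaagaGTGGGAGaagcgaagggca
Kcnn3 PU.1 letters (chr3:89515684-89515713, minus strand): ctggaggggaagAGGAAGTcacagcctttc
Maf EGR letters (chr8:115537171-115537200, minus strand): tctgtcagattaGTGGGGGaaggaggccct
Maf PU.1 letters (chr8:115537058-115537087, plus strand): agaataaagggAGGAAGTggttgatgatta
Maf STAT6 letters (chr8:115537042-115537071, plus strand): acacaacacgTTCGGAAGAAtaaagggagg
Arg1 PU.1 letters (chr10:24930310-24930339, plus strand): aagaaagcataAGGAAGTctgaacaatgcc
Arg1 STAT6 letters (chr10:24930295-24930324, plus strand): atacagcctgTTCATAAGAAagcataagga
Arg1 C/EBP letters (chr10:24930466-24930495, plus strand): aactgtatttcTTGCTTAAttaaaaaaccc
Mgl2 STAT6 letters (chr11:70114626-70114655, plus strand): aaggtaagaaTTCTGGAGAAagtgattcat
Cdh1 STAT6 letters (chr8:106612219-106612248, plus strand): tctcaagatcTTCTGTGGAAaaggcagaga
Pdcd1lg2 PU.1 letters (chr19:29419687-29419716, minus strand): aagtttgaaattAGGAAGTaaggccgtcag

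The letters were searched on both strands of each 300 bp site, and matches of different motifs could overlap, and the stretches printed for PU.1 and STAT6 share bases at the Maf and Arg1 sites. The EGR letters GTGGGNG were present in 37.2% of the 1981 sites, in 64.3% of the sites without a basal PU.1 peak and in 52.8% of all 4677 sites. The PU.1 letters AGGAAGT were present in 33.2% of the sites with a basal PU.1 peak, 12.3% of the others and 21.1% of all. The difference in PU.1 letters follows from how the sites were chosen, while the EGR letters were not used in the choice. For the STAT6 letters, TTC and GAA separated by any 4 bases, the shares were 23.8%, 19.3% and 21.2%. The C/EBP letters TTGCNNAA (21.5%, 20.0% and 20.6%), the AP-1 letters TGANTCA (25.2%, 26.0015% and 25.7%) and the PPAR letters AGGNCANAG (9.34%, 9.16% and 9.24%) were held by similar shares of all 3 sets. A match is a description of the letters and not a bound site, and a site without a match lacks only those letters in that window.

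The 1981 sites lay mostly away from promoters. Introns held 968 of them, 924 were intergenic and 83 (4.19%) lay within 1 kb of a gene start, against 5.97% of the sites without a basal PU.1 peak. Median GC content was 46.7% in the sites with and 47.7% in the sites without a basal PU.1 peak. Accessible regions of C57 BMDMs, taken from the ATAC-based table of the series, covered 1758 of the 1981 sites (88.7%) and 60.3% of the rest.

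PU.1 binding at these sites was shared widely between strains. Of the 1981 sites, 90.7% (95% exact binomial interval 89.3 to 91.9%) overlapped a basal PU.1 peak in BALB BMDMs, 89.2% in NOD, 85.4% in PWK and 79.4% in SPRET. All 4 of these strains had a peak at 1323 sites (66.8%), and none of them did at 35 (1.77%). The corresponding shares of the sites without a C57 basal peak were 7.34%, 7.16%, 13.3% and 15.4%. The 2 sets were divided by C57 PU.1 peaks, so this gap goes with the choice. Whether other C57 PU.1 peaks are shared as widely was not tested. With IL-4 for 24 hours, 1903 of the 1981 sites (96.1%) still overlapped a C57 PU.1 peak and 78 did not. These intervals and those drawn in the plots cover counting error only.

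Other factors were also often present at these sites in C57 BMDMs before IL-4. A basal STAT6 peak overlapped 1192 of the 1981 sites (60.2%, 95% exact binomial interval 58.0 to 62.3%), against 5.27% of the rest. For basal C/EBPb the shares were 38.3% and 8.01%, and for basal PPARg 13.8% and 1.82%. After 24 hours of IL-4, STAT6 peaks overlapped 84.0% of the sites with a basal PU.1 peak, C/EBPb peaks 61.8% and PPARg peaks 61.3%, against 36.8%, 29.6% and 26.1% of the rest. EGR2 peaks were found at 433 of the sites (21.9%) at 1 hour of IL-4 and at 389 (19.6%) at 6 hours, against 10.3% and 14.1% of the rest. The EGR2 lists of 24 hours in other strains did not follow this order, with 52.5% against 62.0% in BALB, 20.4% against 28.6% in NOD, 16.96% against 19.1% in PWK and 45.2% against 44.4% in SPRET. A basal C57 EGR2 peak was found at 0.252% against 0.779%. Peak lists differ in length with the antibody and the depth, so that shares are comparable between sets of sites within a list and not between lists.

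**Figure D1:**
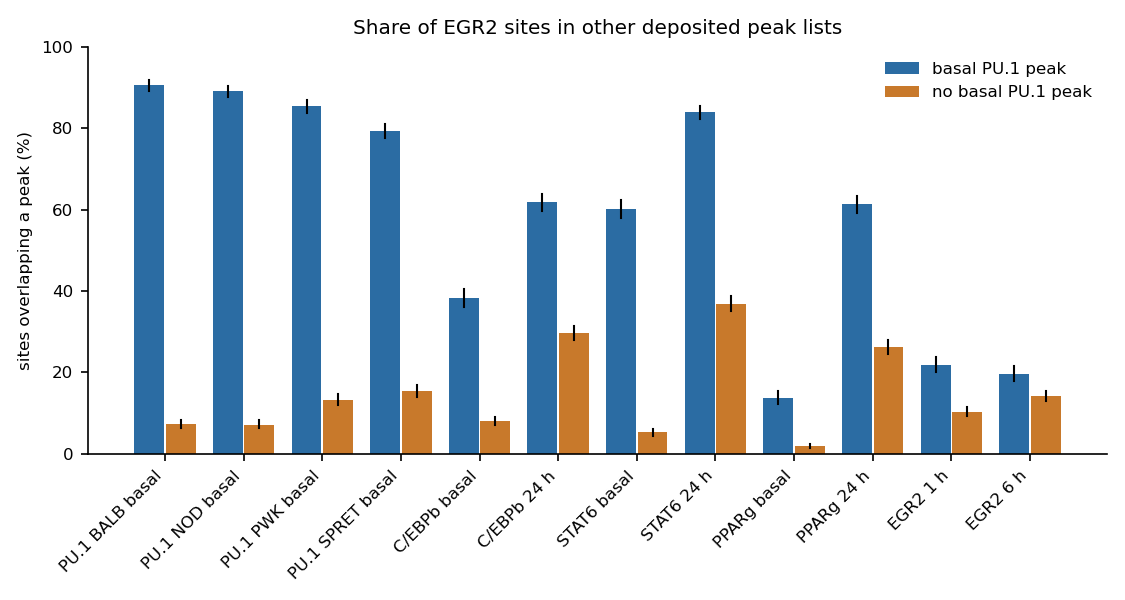
Share of EGR2 sites (%, y axis) that overlap a peak of 12 other deposited lists (x axis: basal PU.1 of 4 strains, and C57 lists of C/EBPb, STAT6, PPARg and EGR2) for the 1981 sites with and the 2696 sites without a basal C57 PU.1 peak, with black lines for 95% exact binomial intervals. The sites with a basal PU.1 peak have the larger share in each of these 12 lists. The gap is widest for the basal PU.1 lists of BALB and NOD, and basal PU.1 was also what divided the sites.

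In C57 BMDMs, EGR2 tags at the 1981 sites had medians of 13.6 and 9.40 in the 2 basal libraries and of 32.3 and 26.9 at 24 hours, a rise that the choice of sites required. At 24 hours the medians of the sites without a basal PU.1 peak were 30.97 and 24.96, so the level of EGR2 itself was close in the 2 sets. H3K27ac at the 1758 sites inside accessible regions had medians of 40.7 and 49.2 in the basal C57 libraries and of 44.99 and 53.2 at 24 hours. The basal and 24 hour ranges of that mark overlapped, whereas at the sites without a basal PU.1 peak the medians were 7.46 and 7.13 before and 20.4 and 22.3 after IL-4.

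Before the comparison of genotypes, 3 features of the libraries have to be stated. Library totals differed such that 1 normalized tag stood for 0.635 to 2.28 reads. The second PPARg library read 0 at 58.9% of the 1981 sites in Egr2 WT basal, at 50.8% in Egr2 MKO basal and at 50.9% in Egr2 MKO at 24 hours, while its Egr2 WT 24 hour counterpart read 0 at 12.2% and the first libraries at 8.58 to 21.5%. The C/EBPb libraries of Egr2 WT basal differed from each other, with medians of 12.4 and 31.8. As a check of the cell type, all 8 macrophage markers examined had a promoter region in the C57 table, with median H3K27ac of 134 to 640 tags and median Pol II of 102 to 1074. Of 18 markers of other blood and stromal cells, 7 had one, with median H3K27ac of 0.685 to 69.0 (highest at the B cell gene Ms4a1) and median Pol II of at most 16.9, and no T cell or mast cell marker had a region. H3K4me3 at these promoter regions did not separate all markers. Its medians were 164 (Itgam) to 498 (Spi1) at the macrophage markers and 224 at the dendritic cell gene Zbtb46. At the remaining markers with a region it was at most 24.9 (Flt3).

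At the 1981 sites PU.1 itself differed little between genotypes. Median PU.1 tags were 42.5 and 44.3 in Egr2 WT basal libraries and 40.5 and 42.3 in Egr2 MKO basal libraries. At 24 hours of IL-4 they were 53.1 and 54.4 in Egr2 WT and 44.6 and 47.0 in Egr2 MKO, so that the WT medians lay above the MKO medians in both conditions. The median over sites of the log2 ratio of Egr2 MKO to Egr2 WT at 24 hours was -0.06, with a range of -0.10 to -0.03 over the 4 pairs of libraries. At the sites without a basal PU.1 peak this median was -0.67, and the 4 pairs ranged from -0.76 to -0.66.

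H3K27ac fell in Egr2 MKO BMDMs at part of the sites only. Median tags at 24 hours were 55.3 and 61.0 in Egr2 WT and 42.6 and 47.6 in Egr2 MKO, with basal medians of 41.8 and 42.1 in Egr2 WT and 35.1 and 39.2 in Egr2 MKO. The median site was 13.03% lower in Egr2 MKO (log2 ratio -0.20, pairs from -0.36 to -0.07), against 41.2% lower (-0.77, pairs from -0.82 to -0.78) where no basal PU.1 peak was present. H3K4me2 gave a median log2 ratio of 0.02, and its pairs ranged from -0.33 to 0.36, so the direction differed between pairs of libraries. Pol II, with 1 library per group, had medians of 16.2 in Egr2 WT and 13.3 in Egr2 MKO and a median log2 ratio of -0.18, against -0.28 at the other sites.

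The other 3 factors were lower in Egr2 MKO by more. C/EBPb medians at 24 hours were 34.5 and 27.6 in Egr2 WT and 13.6 and 15.01 in Egr2 MKO, and the median site was 44.7% lower (log2 ratio -0.86, pairs from -1.05 to -0.65). STAT6 medians were 14.9 and 12.4 in Egr2 WT and 9.28 and 6.76 in Egr2 MKO, and the median site was 35.97% lower (-0.64, pairs from -1.01 to -0.28). PPARg medians were 13.3 and 15.8 in Egr2 WT and 6.26 and 0 in Egr2 MKO, with a median log2 ratio of -1.26 (pairs from -1.64 to -0.98). In each of these 3 factors both Egr2 WT medians lay above both Egr2 MKO medians. At the sites without a basal PU.1 peak the median log2 ratios were -1.41 for C/EBPb, -0.86 for STAT6 and -1.34 for PPARg.

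**Figure D2:**
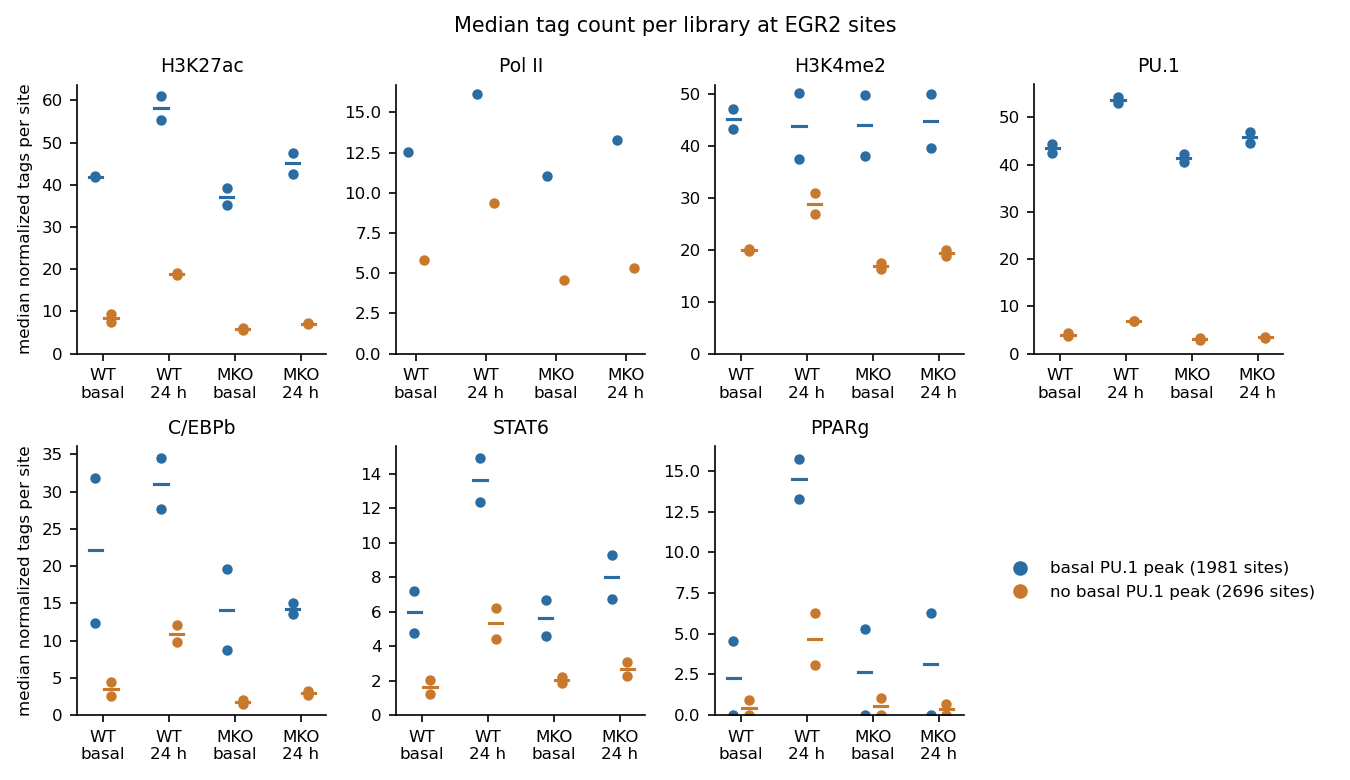
Median normalized tags per site (y axis, from 0) in each library for the 7 targets, by genotype and condition (x axis), for sites with and without a basal C57 PU.1 peak. Each point is 1 library and short lines are means of 2 libraries (Pol II has 1), and at 24 hours the Egr2 WT libraries lie above the Egr2 MKO libraries at the 1981 sites for each target except H3K4me2.

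All of these ratios depend on how the libraries are made comparable. Over all 4677 sites the median log2 ratio at 24 hours was -0.50 for H3K27ac, -0.33 for PU.1, -1.13 for C/EBPb, -0.76 for STAT6 and -1.31 for PPARg when libraries were scaled to their totals. Scaling by the median ratio over the 4677 sites, which centres each library on the median ratio, left the median over all sites at -0.01 for H3K27ac, -0.11 for PU.1, -0.16 for C/EBPb, -0.12 for STAT6 and -0.42 for PPARg. It moved the median of the 1981 sites to 0.31 for H3K27ac, 0.16 for H3K4me2, 0.19 for PU.1, 0.18 for C/EBPb and 0.03 for both STAT6 and Pol II. Under that scaling PPARg stayed below 0, at -0.31, and H3K4me2 stayed above 0. It takes the typical site of a set chosen for EGR2 binding as unchanged between libraries, and this was not tested. The statement that H3K27ac, PU.1, C/EBPb, STAT6 and Pol II were lower in Egr2 MKO at the median site therefore holds for totals-scaled values only. Under either scaling, with the libraries of a group averaged, the median of the 1981 sites lay above that of the 2696 other sites for each of the 7 targets. For PPARg this order was turned in both pairs with the first Egr2 WT library (-0.98 against -0.75 and -1.61 against -1.02).

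**Figure D3:**
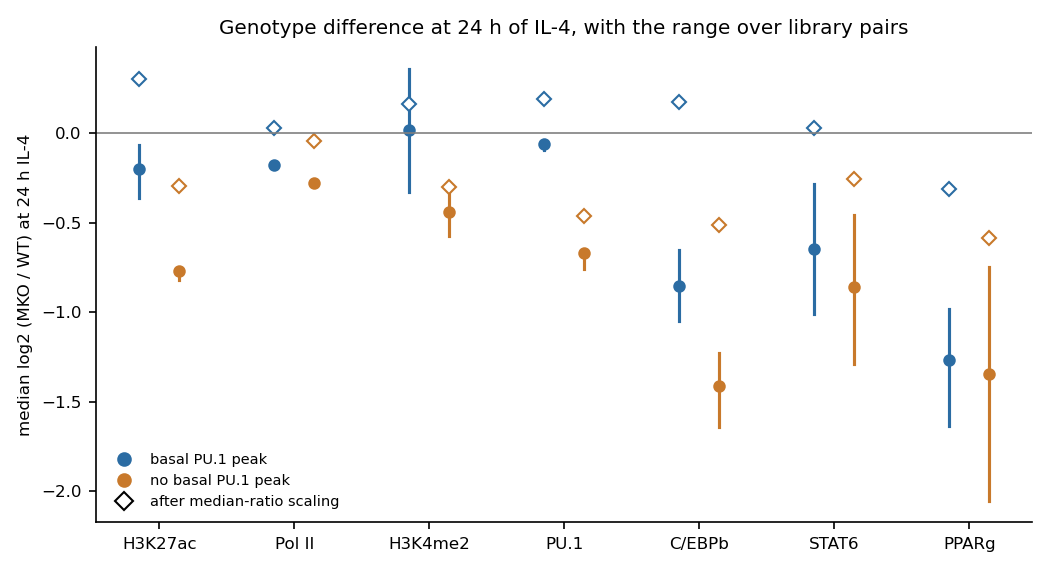
Median log2 ratio of Egr2 MKO to Egr2 WT at 24 hours of IL-4 (y axis) for each target (x axis), at sites with and without a basal C57 PU.1 peak. Filled points use library totals, vertical lines span the 4 pairs of libraries (1 pair for Pol II), open diamonds use median-ratio scaling over all 4677 sites, and for each target the points of the sites with a basal PU.1 peak sit above the others, although for PPARg the order is turned in 2 of the 4 pairs.

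The test across all 4677 sites (limma on log2 of tags plus 1, Benjamini-Hochberg adjusted p under 0.05) called H3K27ac lower in Egr2 MKO at 24 hours at 296 of the 1981 sites (14.9%, where 23.2% of all sites were called) and higher at 49 (2.47%, background 1.41%). Under median-ratio scaling the same test gave 97 lower and 402 higher, so that the direction of the calls followed the scaling. With their own scaling edgeR gave 116 and 403, and DESeq2 gave 58 and 327. Each of these scalings was computed over the same 4677 sites, chosen for EGR2 binding, so they are not separate checks. Without 1 Egr2 WT 24 hour library the limma test made 119 calls (first library left out) or 125 (second), and without the first Egr2 MKO 24 hour library it made 166. Counted without a test, H3K27ac was lower in both Egr2 MKO libraries than in both Egr2 WT libraries at 801 sites (background 51.7%) and higher at 303 (background 9.60%). By a fold rule of at least 2.5 with at least 16 tags in the higher group, 127 sites were lower (background 12.9%) and 7 higher (background 0.171%).

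H3K4me2 was called lower at 34 of the 1981 sites (background 8.94%) and higher at 3 (background 0.15%), namely sites near Tubd1, Fkbp15 and Aplp2, which were named after their values were seen. Median-ratio scaling gave 9 lower and 24 higher, and edgeR 8 and 24. These calls fell to 10 without the first Egr2 WT 24 hour library or without the first Egr2 MKO 24 hour library, and turned to 6 lower and 14 higher without the second Egr2 WT 24 hour library. By the fold rule 15 sites were lower (background 5.73%) and 0 higher (background 0%). The libraries did not overlap at 319 sites lower in Egr2 MKO (background 35.1%) and at 235 higher (background 9.54%).

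PU.1 was called lower at 132 of the 1981 sites (background 9.36%) and higher at 4 (background 0.0855%). Among the sites called higher were those nearest to Rel, a subunit of NF-kB, and to Gm35060 and Fchsd2, which were named after their values were seen. At the Rel site PU.1 tags were 183 and 190 in Egr2 WT and 280 and 233 in Egr2 MKO (log2 ratio 0.45, SE 0.12, limma adjusted p = 0.0305). Median-ratio scaling gave 56 lower and 140 higher, edgeR 84 and 363, and DESeq2 22 and 45. The limma test made 0 calls for PU.1 when either Egr2 WT 24 hour library was left out, 28 without the first Egr2 MKO 24 hour library and 85 without the second. Past the fold rule 39 sites were lower (background 8.36%) and 0 higher (background 0.0214%), and the libraries did not overlap at 624 lower (background 44.6%) and 361 higher sites (background 10.5%).

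C/EBPb was called lower at 54 of the 1981 sites (background 8.25%) and higher at 0 (background 0%). An unadjusted limma p under 0.05 was reached by 290 lower sites (14.6%, against 27.5% of all) and 1 higher (0.0505%, against 0.15%). edgeR called 7 lower and 44 higher, DESeq2 2 lower and 104 higher, and limma after median-ratio scaling none. The 54 calls became 0 without either Egr2 WT 24 hour library or without the second Egr2 MKO 24 hour library, and 7 without the first. The libraries did not overlap at 1159 sites lower in Egr2 MKO (background 63.2%) and at 34 higher (background 1.82%). By the fold rule, with at least 8 tags in the higher group, 430 sites were lower (background 31.7%) and 1 higher (background 0.0428%), the latter near Echdc3.

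For STAT6 and PPARg no site among the 1981 passed limma, edgeR or DESeq2 at 24 hours (limma background 0.0214% for lower STAT6 and 0% otherwise). An unadjusted limma p under 0.05 was reached by 225 lower sites for STAT6 (11.4%, against 14.9% of all sites) and 233 for PPARg (11.8%, against 14%). It was reached by 3 higher sites for STAT6 (0.151%, against 0.107%) and 5 for PPARg (0.252%, against 0.363%). STAT6 libraries did not overlap at 987 sites lower in Egr2 MKO (background 51%) and 34 higher (background 2.07%), and PPARg libraries at 915 lower (background 40.1%) and 37 higher (background 1.6%). By the fold rule STAT6 was lower at 190 sites (background 11.5%) and higher at 0 (background 0%), PPARg was lower at 734 (background 31.6%) and higher at 35 (background 1.69%), and Pol II was lower at 144 (background 9.34%) and higher at 47 (background 1.56%). PPARg was past the fold rule toward lower values at 37.1% of the 1981 sites and at 27.5% of the others. The 27.5% pools 35.9% at the sites with a PU.1 peak at 24 hours only and 23.8% at those with none. For PPARg the minimum of 8 tags was reached at 73.5% of the 1981 sites, against 55.1% of all sites. The 37.1% and 27.5% therefore also depend on how many sites could pass, and shares among sites past the minimum were not compared. Without the second Egr2 MKO library, which held many zeros, PPARg was lower at 704 of the 1981 sites and higher at 27.

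The falls of the 3 factors did not always coincide at the same site, and this was not particular to the 1981 sites. C/EBPb, STAT6 and PPARg were all lower without overlap of libraries at 329 of the 1981 sites (16.6%, against 16.9% of all sites), and none of the 3 was at 284 (14.3%, against 14.6%). C/EBPb and STAT6 were both lower at 618 sites (31.2%, against 35.2%), of which 316 did not have lower PU.1 (15.95% of the 1981, against 14.2% of all). PU.1 and H3K27ac were both lower at 389 sites (19.6%, against 30.3%), and PU.1 was lower without H3K27ac at 235 (11.9%, against 14.3%). Across the 1981 sites, the log2 ratios of genotype correlated most for H3K27ac and PU.1 (Pearson 0.52, Spearman 0.47) and least for Pol II and PPARg (0.04 and 0.05). Next by Pearson were H3K4me2 and PU.1 (0.49, Spearman 0.35), and next by Spearman H3K27ac and Pol II (0.37, Pearson 0.36). These are descriptions across sites that share libraries, and sites are not independent replicates.

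Before IL-4 the genotypes differed less at these sites for H3K27ac, Pol II and STAT6. For PU.1 and H3K4me2 the medians differed about as little as after IL-4. Median log2 ratios of Egr2 MKO to Egr2 WT in basal libraries were -0.11 for H3K27ac, -0.07 for Pol II, -0.01 for H3K4me2, -0.05 for PU.1 and -0.07 for STAT6. C/EBPb was at -0.60 and PPARg at 0.51. limma called 1 site, where H3K27ac was lower (background 0.192%). It lay 2859 bp from the start of Msx3, a homeobox gene, with 18.8 and 12.9 tags in Egr2 WT and 4.01 and 6.17 in Egr2 MKO (log2 ratio -1.47, SE 0.28, limma adjusted p = 0.039), and it was named after its values were seen. edgeR and DESeq2 did not call it. Over all 4677 sites an unadjusted limma p under 0.05 was reached by 11.4% lower for H3K27ac, 7.87% for PU.1, 4.75% for H3K4me2, 3.83% for C/EBPb, 1.41% for STAT6 and 1.39% for PPARg. The shares of higher sites were 0.855%, 1.13%, 0.363%, 0.235%, 1.05% and 4.43% in the same order. Among the 1981 that p was reached by 153 lower and 24 higher sites for H3K27ac, 118 and 23 for PU.1, 32 and 4 for H3K4me2, 38 and 2 for C/EBPb, 30 and 23 for STAT6, and 25 and 137 for PPARg.

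IL-4 in Egr2 WT BMDMs raised STAT6 at part of the 1981 sites. Median STAT6 tags went from 7.22 and 4.79 to 14.9 and 12.4 (median log2 ratio 1.04, against 0.98 at the sites without a basal PU.1 peak), and limma called 305 sites higher (background 11.8%) and 0 lower (background 0%). The 0.98 pools 1.38 at the 830 sites with a PU.1 peak at 24 hours only and 0.82 at the 1866 with none. PPARg rose from medians of 4.56 and 0 to 13.3 and 15.8 (1.88, against 1.51), with 0 limma calls (background 0%). At an unadjusted limma p under 0.05, PPARg was higher at 466 sites (23.5%, against 20.1% of all sites). Median-ratio scaling left 1 lower and 28 higher STAT6 sites, edgeR 2 and 38, and leaving out the first Egr2 WT 24 hour STAT6 library left 9 calls.

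The marks and the PU.1 signal responded less. H3K27ac rose by a median log2 ratio of 0.27 (0.73 at the other sites), with 421 sites called higher (background 25.6%) and 90 lower (background 2.54%), and PU.1 by 0.12 (0.61), with 136 called higher (background 8.19%) and 2 lower (background 0.0428%). Those 2 lay near Eci2 and in an intron assigned to Maf, apart from the Maf site printed above, and were named after their values were seen. Because the 1981 sites were chosen for PU.1 before IL-4, their smaller PU.1 rise is not independent of that choice. C/EBPb changed by 0.22 (1.08), with 7 called higher (background 2.1%) and 0 lower (background 0%, with 0 of the 1981 and 0.107% of all sites lower at an unadjusted p under 0.05). The C/EBPb calls turned under edgeR (11 higher and 63 lower) and DESeq2 (8 higher and 78 lower). Both change the test and the scaling together, so the turn cannot be assigned to either. H3K4me2 changed by -0.02 (0.40), with 47 higher (background 8.06%) and 6 lower (background 0.15%). Median-ratio scaling turned the split to 211 higher and 368 lower for H3K27ac, 38 and 51 for PU.1, and 14 and 29 for H3K4me2. Leaving out either Egr2 WT 24 hour PU.1 library removed all PU.1 calls, and leaving out an Egr2 WT 24 hour H3K27ac library left 300 or 302 H3K27ac calls.

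In Egr2 MKO BMDMs the same IL-4 contrast had medians of 0.09 for H3K27ac, 0.10 for PU.1, 0.00 for H3K4me2, -0.04 for C/EBPb, 0.48 for STAT6, 0.03 for Pol II and 0 for PPARg. The test of the difference between the IL-4 responses of the 2 genotypes (interaction) made 0 limma calls for every one of the 6 replicated targets (background 0%, and 0.0428% for lower H3K4me2). DESeq2 called 1 site for H3K27ac, and edgeR none. An unadjusted p under 0.05 toward a smaller response in Egr2 MKO was reached by 144 of the 1981 sites for H3K27ac (7.27%, against 11.7% of all sites), 92 for PU.1 (4.64%, against 7.85%), 40 for H3K4me2 (2.02%, against 5.94%), 39 for C/EBPb (1.97%, against 6.50%), 128 for STAT6 (6.46%, against 8.02%) and 286 for PPARg (14.4%, against 12.4%). Toward a larger response it was reached by 46 sites for H3K27ac (2.32%, against 1.48% of all sites) and 44 for PU.1 (2.22%, against 1.43%). The counts were 9 for H3K4me2 (0.454%, against 0.513%) and 3 for C/EBPb (0.151%, against 0.214%). They were 2 for STAT6 (0.101%, against 0.171%) and 7 for PPARg (0.353%, against 0.513%). 

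The height of the basal PU.1 peak ordered the genotype ratios at 24 hours. The deposited count of the C57 peak was taken as its height, and its scale is not given. This count comes from the list that chose the sites, so the order of PU.1 itself over the groups below is not a separate finding. The count ran from 24 to 76 in the lowest group of sites (660), from 76 to 175 in the middle group (660) and from 175 to 706 in the highest group (661). Median log2 ratios of H3K27ac were -0.37, -0.30 and -0.03 over these groups, those of PU.1 -0.25, -0.11 and 0.06, and those of C/EBPb -1.06, -0.90 and -0.67. STAT6 went from -0.76 over -0.66 to -0.56, PPARg was at -1.34, -1.35 and -1.11, and H3K4me2 at -0.04, 0.01 and 0.09. The IL-4 response in Egr2 WT was ordered the other way for H3K27ac (0.39, 0.29 and 0.09), PU.1 (0.35, 0.15 and -0.01) and C/EBPb (0.51, 0.29 and 0.00), while STAT6 was even (1.07, 1.03 and 1.02). Sites of low peaks also have fewer tags, with a median of 37.7 H3K27ac tags in Egr2 WT at 24 hours in the lowest group and 88.7 in the highest, and the part of tag number in this order was not tested.

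**Figure D4:**
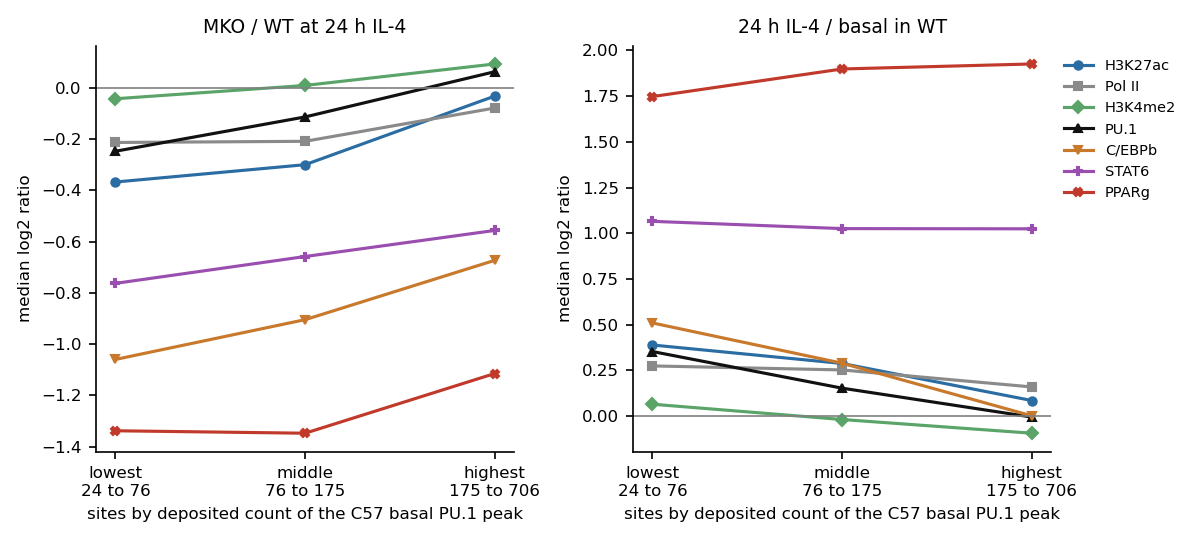
Median log2 ratio (y axis) of Egr2 MKO to Egr2 WT at 24 hours of IL-4 (left) and of 24 hours of IL-4 to basal in Egr2 WT (right) for 7 targets, in 3 groups of the 1981 sites by the deposited count of the C57 basal PU.1 peak (x axis). From the lowest to the highest group the H3K27ac genotype ratio goes from -0.37 to -0.03, and the STAT6 response to IL-4 stays between 1.02 and 1.07.

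A basal STAT6 peak separated the sites in the same manner. At the 1192 sites that had one, the median genotype log2 ratios were -0.06 for H3K27ac and 0.03 for PU.1, and at the 789 that had none they were -0.52 and -0.28. The H3K27ac response to IL-4 in Egr2 WT had medians of 0.14 and 0.49 in these sets. Where EGR2 was already bound at 1 hour (433 sites) the genotype ratio of H3K27ac was -0.03, against -0.27 at the remaining 1548, and the STAT6 response to IL-4 was 1.44 against 0.96. The 736 sites with EGR letters had a ratio of -0.33 for H3K27ac and -0.15 for PU.1, against -0.14 and -0.01 at the 1245 without. Sites with STAT6 letters (471) had larger IL-4 responses of H3K27ac (0.60 against 0.18) and of STAT6 (1.49 against 0.93), and a genotype ratio of H3K27ac of -0.05 against -0.27. These are medians over sites, given without a test.

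Sites called for H3K27ac by limma on totals-scaled values differed from the rest of the 1981 in what else they held. Which sites fall in each class depends on the scaling, since median-ratio scaling gave 97 lower and 402 higher. The traits of those other classes were not examined. The peak count compared below is also from the list that chose the sites. The 296 sites called lower had a median basal PU.1 peak count of 89.5, against 187 at the 49 called higher and 120 at the 1636 not called. A basal STAT6 peak overlapped 37.2% of the sites called lower, 85.7% of those called higher and 63.6% of those not called, and EGR letters were present in 41.2%, 20.4% and 36.9%. Median log2 ratios of PU.1 at 24 hours were -0.42, 0.20 and -0.02, and those of C/EBPb -1.32, -0.34 and -0.80. In C57 BMDMs, whose libraries did not enter the calls, H3K27ac at the sites called lower had medians of 25.1 and 24.2 before and 36.5 and 48.6 after IL-4. At the sites called higher the C57 medians were 99.1 and 152 before and 73.9 and 86.6 after, so the medians of the 2 sets moved in opposite directions with IL-4 in libraries of other mice. Only the 269 and 47 of these sites that lay inside accessible regions had C57 values.

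The sites with the largest falls of H3K27ac by group means held little of the mark in Egr2 MKO. A site in an intron of Pde4a, a cyclic AMP phosphodiesterase gene (chr9:21195066-21195366), had 5.96 and 2.72 H3K27ac tags in Egr2 WT basal libraries, 20.1 and 23.1 at 24 hours, and 0 and 2.32 in Egr2 MKO at 24 hours (log2 ratio -3.63, SE 0.65, limma adjusted p = 0.00109). PU.1 at this site read 138 and 119 in Egr2 WT and 116 and 113 in Egr2 MKO (-0.17, limma adjusted p = 0.523), so PU.1 differed little where the mark was nearly gone. The EGR letters of this site are printed above, and no PU.1 letters were found in it.

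A site 3476 bp from the start of Ffar4, a receptor for long-chain fatty acids (chr19:38093445-38093745), had 32.2 and 41.8 H3K27ac tags in Egr2 WT and 3.12 and 4.06 in Egr2 MKO (log2 ratio -3.04, SE 0.52, limma adjusted p = 0.000794), and Pol II went from 20.4 to 0. PU.1 there read 35.98 and 50.7 in Egr2 WT and 21.2 and 24.7 in Egr2 MKO, a difference that did not pass (limma adjusted p = 0.088). Near Kcnn3, a potassium channel gene (chr3:89515610-89515910), H3K27ac read 34.2 and 21.8 in Egr2 WT and 0 and 4.64 in Egr2 MKO (limma adjusted p = 0.00328), and PU.1 69.4 and 73.6 against 40.1 and 42.4 (-0.78, limma adjusted p = 0.0496). The genotypes overlapped in neither mark nor PU.1 at the Ffar4 and Kcnn3 sites.

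By the fold of group means, the largest rise was at a site 170029 bp from the start of Maf, the gene of a bZIP factor of macrophages (chr8:115536917-115537217). H3K27ac there read 20.1 and 12.9 in Egr2 WT and 74.8 and 45.3 in Egr2 MKO at 24 hours (limma log2 ratio 1.79, SE 0.43, limma adjusted p = 0.00705), from basal values of 2.56 and 2.04 in Egr2 WT and 8.02 and 8.41 in Egr2 MKO. IL-4 raised the mark at this site in Egr2 WT (2.38, limma adjusted p = 0.000702), and both Egr2 MKO libraries lay above both Egr2 WT libraries in either condition. By limma's log2 ratio, sites near Enpp7 (1.80) and Gcg (1.80), looked up after their values were seen, rose as much. PU.1 read 138 and 94.0 in Egr2 WT and 158 and 116 in Egr2 MKO, ranges that overlapped.

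PU.1 fell most at a site near Atp6v1b2, which encodes a subunit of the vacuolar proton pump (chr8:69063501-69063801). PU.1 tags there were 20.4 and 8.87 in Egr2 WT basal libraries, 85.7 and 81.0 at 24 hours, and 7.80 and 8.08 in Egr2 MKO at 24 hours (log2 ratio -3.24, SE 0.47, limma adjusted p = 0.002). H3K27ac followed the same order, with 31.2 and 31.5 in Egr2 WT and 3.12 and 2.90 in Egr2 MKO (limma adjusted p = 0.00253). Near Cd200r3, a gene of the CD200 receptor family, PU.1 read 70.3 and 78.5 in Egr2 WT and 11.1 and 17.2 in Egr2 MKO (limma adjusted p = 0.002), and near Mef2c, the gene of a MADS-box factor, 59.1 and 58.1 against 7.80 and 13.1 (limma adjusted p = 0.00223). At each of these 3 sites PU.1 was higher at 24 hours than in basal Egr2 WT libraries, and no such pair overlapped.

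The H3K4me2 falls were led by sites near Mex3b, Mrtfb and Chrnb2. At the Mex3b site (chr7:83116539-83116839) H3K4me2 read 36.5 and 25.4 in Egr2 WT and 1.44 and 6.16 in Egr2 MKO (log2 ratio -2.91, SE 0.53, limma adjusted p = 2.7e-05), and H3K27ac, PU.1 and C/EBPb were also called lower there. PU.1 at that site read 107 and 76.0 in Egr2 WT and 17.8 and 23.7 in Egr2 MKO (-2.08, limma adjusted p = 0.002). The Mrtfb site, near a gene of an actin-regulated coactivator, had H3K4me2 of 29 and 29.3 against 5.05 and 5.39 (limma adjusted p = 0.000466).

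Among the sites with lower C/EBPb, those near Ccnt2, Hhat and Otos read 0 in both Egr2 MKO libraries at 24 hours. At the Ccnt2 site (chr1:127796586-127796886) C/EBPb read 21.2 and 18.7 in Egr2 WT (limma adjusted p = 0.00794), while PU.1 read 56.6 and 48.2 in Egr2 WT and 64.6 and 44.4 in Egr2 MKO and H3K27ac 50.3 and 41.8 against 33.3 and 47.6. C/EBPb was thus undetected at a site where PU.1 and H3K27ac overlapped between genotypes. The largest STAT6 differences were near Armc4, with 24.9 and 25.7 in Egr2 WT and 1.03 and 4.51 in Egr2 MKO, and next near Wdr1, a gene of an actin-disassembly factor (chr5:38551668-38551968), with 11.2 and 15.1 in Egr2 WT and 0 and 2.25 in Egr2 MKO. Neither passed (limma adjusted p = 0.136 and 0.121). H3K27ac at the Wdr1 site read 129 and 118 against 15.6 and 22.1 and passed (limma adjusted p = 0.000167).

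For PPARg the largest differences were near Zfp652, Ptprj and Anxa1, and none passed the test (limma adjusted p = 0.162, 0.266 and 0.327). At the Anxa1 site, near the gene of the lipid-binding protein annexin A1 (chr19:20397129-20397429), PPARg read 12.3 and 52.0 in Egr2 WT and 0 in both Egr2 MKO libraries, and H3K27ac read 127 and 116 against 37.4 and 52.2 (limma adjusted p = 0.0011). The 2 Egr2 WT PPARg values differed by more than 4 times at this site. At the Zfp652 site H3K27ac read 109 and 128 in Egr2 WT and 21.8 and 27.9 in Egr2 MKO (log2 ratio -2.21, SE 0.26, limma adjusted p = 0.000113).

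Alternative activation genes were the nearest gene of 23 sites, belonging to 13 of the 33 genes listed. H3K27ac was called lower at 2 of the 23 (background 23.2%) and higher at 2 (background 1.41%), PU.1 was called lower at 2 (background 9.36%), and no other target was called. The median log2 ratio of H3K27ac over the 23 was -0.08, against -0.20 over the 1981 sites and -0.50 over all 4677. PPARg was lower by the fold rule at 12 of the 23 (background 31.6%), C/EBPb at 6 (background 31.7%) and STAT6 at 2 (background 11.5%).

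Arg1, which encodes the arginase of alternatively activated macrophages, had 3 such sites. The one with the most H3K27ac, 2883 bp from the gene start (chr10:24930217-24930517), read 166 and 158 in Egr2 WT basal libraries, 348 and 369 at 24 hours, and 422 and 373 in Egr2 MKO at 24 hours (log2 ratio 0.15, SE 0.20, limma adjusted p = 0.646). Both Egr2 MKO values lay above both Egr2 WT values by a margin that did not pass the test. STAT6 there read 112 and 87.6 in Egr2 WT and 55.7 and 42.8 in Egr2 MKO, and PPARg 229 and 143 against 75.1 and 49.1. Neither factor overlapped between genotypes and neither passed (limma adjusted p = 0.339 and 0.284), while PU.1 read 224 and 274 against 226 and 234.

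Near Mgl2, a C-type lectin gene, H3K27ac rose with IL-4 from 5.96 and 8.82 to 87.4 and 110 in Egr2 WT (log2 ratio 3.58, limma adjusted p = 3.8e-06), and read 84.2 and 156 in Egr2 MKO at 24 hours. The Irf4 site, near the gene of a factor of the interferon regulatory family, had 58.3 and 81.6 in Egr2 WT and 36.4 and 55.7 in Egr2 MKO at 24 hours (limma adjusted p = 0.412), from basal Egr2 WT values of 2.56 and 6.79. At the Msx3 site described above, H3K27ac reached 210 and 229 in Egr2 WT and 291 and 304 in Egr2 MKO (limma adjusted p = 0.275). At these 3 sites every 24 hour library of either genotype lay above every basal library of it, and no difference between genotypes was found by the test at 24 hours.

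Cdh1, the E-cadherin gene, was one of the genes whose site fell. H3K27ac read 277 and 270 in Egr2 WT and 167 in both Egr2 MKO libraries (log2 ratio -0.71, SE 0.20, limma adjusted p = 0.0181), and IL-4 raised it in Egr2 WT from 69.0 and 72.6. Pdcd1lg2, which encodes a ligand of PD-1, had 2 sites and both rose. The site 2414 bp from the gene start read 257 and 276 in Egr2 WT and 421 and 431 in Egr2 MKO (0.67, SE 0.18, limma adjusted p = 0.0142), and the intronic site at chr19:29430963-29431263 read 140 and 137 against 369 and 340 (1.35, SE 0.19, limma adjusted p = 0.00027). The intronic site was named after its values were seen. STAT6 at the first Pdcd1lg2 site overlapped between genotypes, with 27.4 and 30.1 against 31.96 and 15.8.

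**Figure D5:**
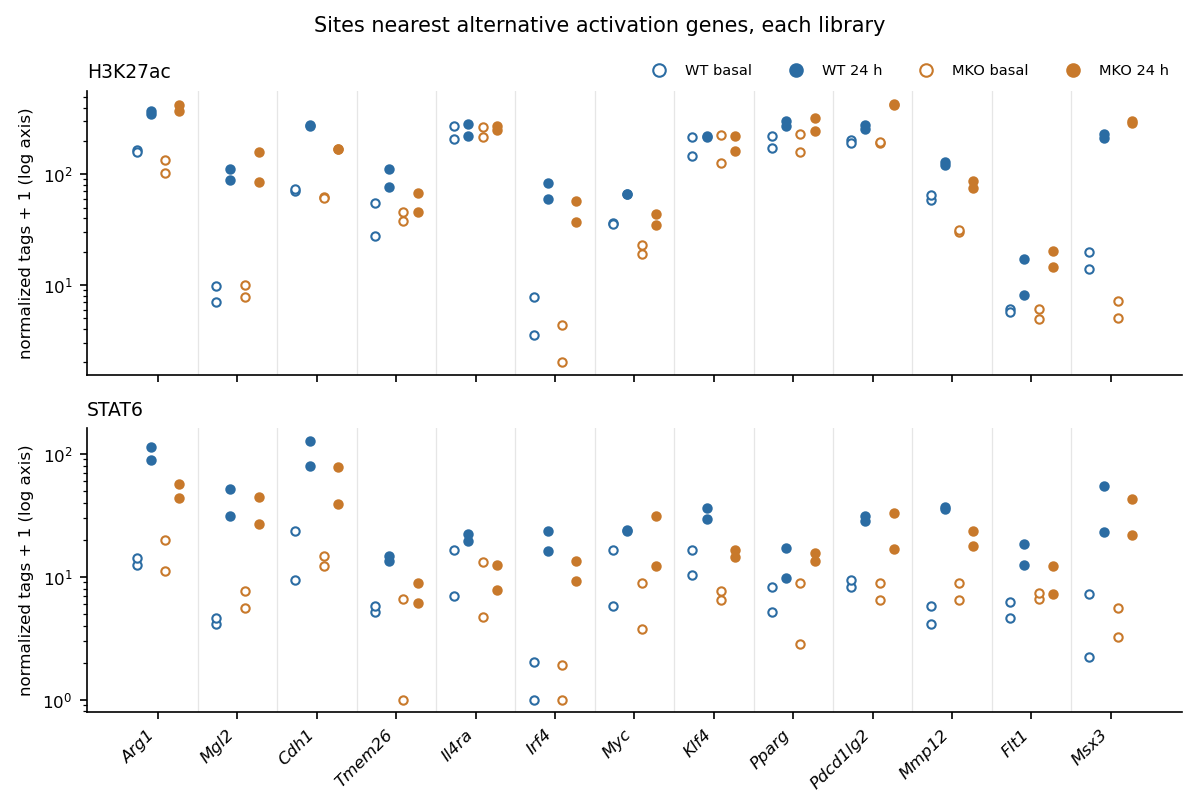
Normalized tags plus 1 (log axis) of H3K27ac (top) and STAT6 (bottom) in each library at the site with the most H3K27ac for each of 13 alternative activation genes (x axis). Points are single libraries by genotype and condition, and at the Arg1 site at 24 hours H3K27ac is slightly higher in Egr2 MKO (422 and 373, against 348 and 369 in Egr2 WT) while STAT6 is lower (55.7 and 42.8, against 112 and 87.6).

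Lipid uptake and efflux genes were nearest to 3 sites, belonging to 3 of 13 genes listed. The Plin2 site, near a gene of a lipid droplet protein, had 122 and 130 H3K27ac tags in Egr2 WT and 53.0 and 80.1 in Egr2 MKO (log2 ratio -0.94, SE 0.26, limma adjusted p = 0.0155). The Cd36 site, near a scavenger receptor gene, read 90.5 and 77.1 against 54.0 and 67.3 and the Lpl site, near the lipoprotein lipase gene, 150 and 174 against 122 and 188, and neither passed. PPARg at the Cd36 site read 572 and 279 in Egr2 WT and 135 and 140 in Egr2 MKO, without overlap but not past the test (limma adjusted p = 0.338).

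Macrophage lineage genes (5 of 14 listed) were nearest to 6 sites, of which H3K27ac was called lower at 1 and higher at 1. The lower one lay near Cebpa, the gene of C/EBPa, with 29.2 and 41.8 in Egr2 WT and 11.4 and 11.6 in Egr2 MKO (log2 ratio -1.52, SE 0.32, limma adjusted p = 0.00342). The higher one lay near Adgre1, which encodes the F4/80 antigen, with 210 and 303 against 390 and 530 (0.85, SE 0.23, limma adjusted p = 0.0146). At the site nearest to Spi1, the gene of PU.1 itself, H3K27ac read 506 and 717 against 563 and 672 and overlapped between genotypes.

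Inflammatory genes (4 of 15 listed) were nearest to 5 sites, with no H3K27ac call and 1 lower PU.1 call, at Tlr4, the endotoxin receptor gene. PU.1 at the Tlr4 site read 78.0 and 73.6 in Egr2 WT and 33.4 and 39.4 in Egr2 MKO (log2 ratio -1.04, SE 0.22, limma adjusted p = 0.0087). Of 4 EGR family and corepressor genes listed, Egr1 and Egr3 were nearest to 1 site each. H3K27ac at the Egr1 site read 230 and 224 in Egr2 WT and 98.7 and 81.3 in Egr2 MKO (-1.33, SE 0.22, limma adjusted p = 0.000754), and at the Egr3 site 168 and 170 against 145 and 191.

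At the edge of the rule the choice of sites rested on few bases. The smallest overlaps with a basal PU.1 peak were 2 bp near Klf9 and Snx8 and 4 bp near Zmiz1, where PU.1 in Egr2 WT basal libraries read 40.8 and 31.8, 10.2 and 18.3, and 2.55 and 4.69. The nearest sites left out, near Mink1, Cd47 and Csrp1, touched or lay 1 bp from a peak and read 11.1 and 14.1, 15.3 and 7.82, and 17 and 18.3. The 39 sites with under 30 bp of overlap had median basal PU.1 tags of 10.2 and 9.39 in Egr2 WT, and the 32 sites left out by under 30 bp had 14.5 and 11.995.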

How the data were processed

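The members and gene lists were chosen with earlier results of these data known. The authors aligned reads with Bowtie2 to mm10, or for other strains to the genome of the strain with positions then moved to mm10 by MMARGE, and counted tags at sites with HOMER, and the deposited signal values are tags scaled to 1e+07 reads per library, in 1000 bp for histone marks and Pol II and in 300 bp for the other factors. All 243204 values were whole reads within 0.1 read. The deposited peak lists came from replicates by the authors, and the count of a peak was used as a score whose scale is not given in the sources used here. A further 4 value columns matched no sample and were not used.

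Sites were matched to peaks by at least 1 bp and to the nearest gene start in GENCODE vM21, and a promoter was within 1000 bp of a start. Bases came from the RefSeq GRCm38 genome. Each target was fitted over all 4677 sites with limma 3.58.1 (R 4.3.3) on log2 of tags plus 1, in 4 groups of 2 libraries, with an adjusted p threshold of 0.05. Over so few libraries, limma p-values set a group difference against a spread estimated from these samples and partly shared over all 4677 sites. Pol II, with 1 library per group, was described by a fold rule of 2.5 with a minimum of 8 tags (16 for histone marks). The scripts were tested on simulated data.

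Sites named in the text were, for each target with 2 libraries per group, the 3 largest falls and the largest rise among sites past the fold rule whose libraries did not overlap, and for each listed gene the nearest site with the most H3K27ac in Egr2 WT at 24 hours. H3K4me2, PU.1 and STAT6 had no such rise. Sites at the edge of the rule were ranked by their overlap with a peak. Any other site is marked in the text as picked with its values known. One such site is not reported here. The alternatives tried were edgeR 4.0.16 and DESeq2 1.42.0 on recovered reads, median-ratio scaling, a pseudocount of 5, filters on low tags, a fold of 2, stricter matches to PU.1 peaks, a replicate block and leaving out each library. Tables and plots were made with Python 3.11.15, pandas 2.3.3, scipy 1.17.1 and matplotlib 3.10.9.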

Additional observations from a re-analysis of the deposited data

How the results depend on the processing

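Counts of calls at the 1981 sites moved with scaling, single libraries, the tool, the pseudocount and the tag filter, and the cause was not tested. With 2 libraries per group, 1 library decided many calls. Many sites had few STAT6 or PPARg tags, and the part of this in the precision was not tested.

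Leaving out 1 library at a time, the calls between genotypes at 24 hours ranged from 119 to 361 for H3K27ac (345 with all libraries), 10 to 39 for H3K4me2 (37), 0 to 169 for PU.1 (136), 0 to 57 for C/EBPb (54) and 0 to 31 for PPARg (0). PPARg reached 31 and 30 without the first and the second Egr2 WT 24 hour library. In basal libraries they ranged from 0 to 6 for H3K27ac, 0 to 2 for H3K4me2, 0 to 5 for PU.1 and 0 to 7 for PPARg. For IL-4 in Egr2 WT they ranged from 300 to 519 for H3K27ac, 15 to 54 for H3K4me2, 0 to 183 for PU.1, 0 to 9 for C/EBPb, 9 to 337 for STAT6 and 0 to 44 for PPARg. For the interaction they ranged from 0 to 5 for H3K27ac, 0 to 1 for H3K4me2 and 0 to 26 for PPARg. By the fold rule they ranged from 20 to 41 for H3K4me2, 42 to 68 for PU.1 and 186 to 496 for STAT6, the last without the first Egr2 MKO 24 hour library. Median log2 ratios ranged from -0.0872 to -0.0420 for PU.1, -0.98 to -0.62 for C/EBPb and -1.85 to -1.01 for PPARg. The H3K4me2 median ranged from -0.16 to 0.24, and it was reversed, at -0.16, without the first Egr2 WT or without the second Egr2 MKO 24 hour library.

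Median-ratio scaling reversed the median log2 ratio to 0.31 for H3K27ac, 0.0303 for Pol II, 0.19 for PU.1, 0.18 for C/EBPb and 0.0318 for STAT6, and moved that of PPARg to -0.31. It left 0 basal H3K27ac calls, 0 C/EBPb calls between genotypes at 24 hours, and for IL-4 89 PU.1, 1 C/EBPb and 29 STAT6 calls. By the fold rule it gave 89 sites for H3K27ac, 17 for PU.1, 104 for C/EBPb, 26 for STAT6 and 282 for PPARg.

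On recovered reads, edgeR called 519 sites for H3K27ac and 447 for PU.1 between genotypes at 24 hours, 0 for basal H3K27ac, and for IL-4 339 for PU.1, 74 for C/EBPb and 40 for STAT6. DESeq2 called 4 sites for H3K4me2, 67 for PU.1 and 106 for C/EBPb between genotypes at 24 hours, 0 for basal H3K27ac and 1 for the H3K27ac interaction, and for IL-4 6 for H3K4me2, 51 for PU.1, 86 for C/EBPb and 6 for STAT6.

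With a pseudocount of 5, calls at 24 hours between genotypes were 94 for C/EBPb and 31 for STAT6, those for IL-4 40 for C/EBPb and 459 for STAT6, those for H3K27ac 0 in basal and 7 for the interaction. The fold rule then gave 100 sites for Pol II, 7 for H3K4me2, 19 for PU.1, 246 for C/EBPb and 40 for STAT6, and the medians were -0.13 for Pol II and -0.84 for PPARg. Sites with a mean of at least 8 tags left 24 C/EBPb calls between genotypes and 1 for IL-4, and gave 9 (24 hours), 11 (basal), 173 (IL-4) and 41 (interaction) for PPARg, with a Pol II median of -0.17. A fold of 2 gave 231 sites for H3K27ac, 312 for Pol II, 50 for H3K4me2, 102 for PU.1, 726 for C/EBPb and 408 for STAT6. With no tag minimum the fold rule gave 355 sites for Pol II and 27 for H3K4me2. PU.1 peaks of the upper part of the list gave medians of -0.16 for Pol II and -0.0070 for PU.1, and peak centres within 50 bp gave -0.15 for Pol II.

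The main fit did not pair libraries by replicate number. Deviations of same-numbered libraries were correlated over 6 pairs of groups per target, with a limit of 0.1. The correlations ran from 0.0942 to 0.200 for H3K27ac, 0.0768 to 0.203 for H3K4me2 and 0.00541 to 0.0814 for PU.1. For C/EBPb they ran from 0.0595 to 0.232, for STAT6 from 0.0970 to 0.152 and for PPARg from 0.00659 to 0.0955. The limit was passed by 4 of 6 for H3K27ac, 5 for H3K4me2, 3 for C/EBPb and 4 for STAT6. It was passed by 0 for PU.1 and PPARg, so replicate numbers may be shared structure for part of the targets. With the replicate block, calls between genotypes at 24 hours were 543 for H3K27ac, 83 for H3K4me2 and 73 for STAT6, basal H3K27ac had 26, IL-4 gave 99 for H3K4me2, 13 for C/EBPb and 702 for STAT6, and the interaction gave 26 for H3K27ac and 5 for STAT6.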
